A study of Mus musculus with 29 samples.

Results

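PXR and CAR are the nuclear receptors through which liver cells sense foreign compounds, and they were followed here with a small set of their targets in mouse liver. The receptors were Nr1i2, which encodes PXR, and Nr1i3, which encodes CAR. The targets were the cytochrome P450 genes Cyp3a11, Cyp3a13, Cyp3a25 and Cyp2b10, the electron donor gene Por and the transporter gene Abcc3. Members were chosen by gene name among the probes that were not controls, which gave 8 of the genes on the array, 19465 gene names of which could be tested, with 11 of its 39429 probes. Of the genes, 3 had a pair of probes (Cyp3a11, Cyp3a13 and Nr1i3), and the brighter probe of each gene, its lead probe, gives the values below. All 11 probes passed the filter on dim signal, were well above background on all 29 arrays in Cy5 and were saturated on 0 of them.

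Each array held the RNA of 1 liver, labelled with Cy5, against a pool made from all samples, labelled with Cy3. The mice were male C57BL/6N, 3 months old at the start, and for 7 weeks all were fed a high-fat diet made with corn oil. The cHF+PC+R group (8 livers) received both omega-3 phospholipids and a low dose of rosiglitazone in that diet. The cHF+PC group (8 livers) received the phospholipids alone, the cHF+R group (6 livers) rosiglitazone alone, and the cHF group (7 livers) neither. About 7% of the fat in the diet was given as these phospholipids, which were rich in phosphatidylcholine and contained EPA and DHA. Rosiglitazone is a drug that activates PPAR-gamma. No group ate a low-fat diet, so each change is one on top of the high-fat diet that all groups shared. The comparisons ask what each supplement did to the expression of these genes, and whether the effect of the phospholipids was the same with rosiglitazone as without it.

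In an unstimulated hepatocyte PXR and CAR reside partly in the cytoplasm. Once active they enter the nucleus, pair with the retinoid X receptor and bind paired copies of a hexamer in the control regions of genes for drug, steroid and bile acid metabolism. PXR is best known for the induction of Cyp3a genes and CAR for that of Cyp2b10, and many of their targets overlap. Products of the target genes oxidise (cytochromes P450), conjugate and export lipophilic compounds, and every microsomal cytochrome P450 takes its electrons from the product of Por.

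Sequences of the probes show which transcripts each value can stand for. They are printed 5′ to 3′ in lower case as designed by the manufacturer, and the positions are those of the files, on the mouse build mm9. The first Cyp3a11 probe is the lead probe at chr5:146666237-146666296. The second Cyp3a11 probe spans chr5:146672058-146673925, far more than its 60 bases, so it crosses an intron. The file lists transcripts of Cyp3a11, Cyp3a41a, Cyp3a41b and Cyp3a44 for the second probe, and of Cyp3a11 alone for the first. The Cyp3a25 probe lies at chr5:146788879-146788938, the Cyp2b10 probe at chr7:26711522-26711581, the Nr1i2 probe at chr16:38248745-38248804 and the lead Nr1i3 probe at chr1:173148765-173148824.
Cyp3a11 lead probe: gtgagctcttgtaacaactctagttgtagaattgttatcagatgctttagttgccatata
Cyp3a11 second probe: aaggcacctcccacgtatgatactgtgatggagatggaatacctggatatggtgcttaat
Cyp3a25 probe: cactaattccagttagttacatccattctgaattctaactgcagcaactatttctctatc
Cyp2b10 probe: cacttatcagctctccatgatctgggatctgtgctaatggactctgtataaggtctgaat
Nr1i2 probe: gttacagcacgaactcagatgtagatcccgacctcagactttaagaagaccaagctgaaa
Nr1i3 lead probe: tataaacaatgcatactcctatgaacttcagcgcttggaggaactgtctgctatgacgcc
Over the 55 pairs of member probes, the longest run shared by a pair was 8 bases, so no member probe was a copy of another. The other lead probes lie at chr5:138335412-138335471 for Cyp3a13, chr5:136211122-136211181 for Por and chr11:94204612-94204671 for Abcc3, which puts 4 of the 8 members on chromosome 5. Whether a probe lies in a coding exon or a UTR was not analysed here.

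The arrays were alike in signal except for cHF replicate 4, where 80.8% of 43020 spots were well above background in Cy5, against 55.0% to 62.5% on the others. After background correction the log2 ratios were narrow on 6 arrays (4 cHF+PC, 1 cHF+R, 1 cHF). Their median absolute log2 ratio was 0.0214 to 0.0646, against 0.0916 to 0.125 on the other 23, while without background subtraction the ranges were 0.0983 to 0.129 and 0.095 to 0.132. Array pairs correlated over all probes with a median r of 0.363 inside a group and 0.171 across groups, and cHF+PC replicate 6 with cHF+R replicate 5 gave the minimum of -0.305. The labels state which dye held the liver, so the direction of every ratio is settled. All 10 hepatocyte markers, Alb and Ttr among them, were well above background on all 29 arrays. Lists of markers of other liver cells are described with the results they move with. In whole liver, fewer cells of a type and less RNA per cell cannot be told apart.

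**Figure D1:**
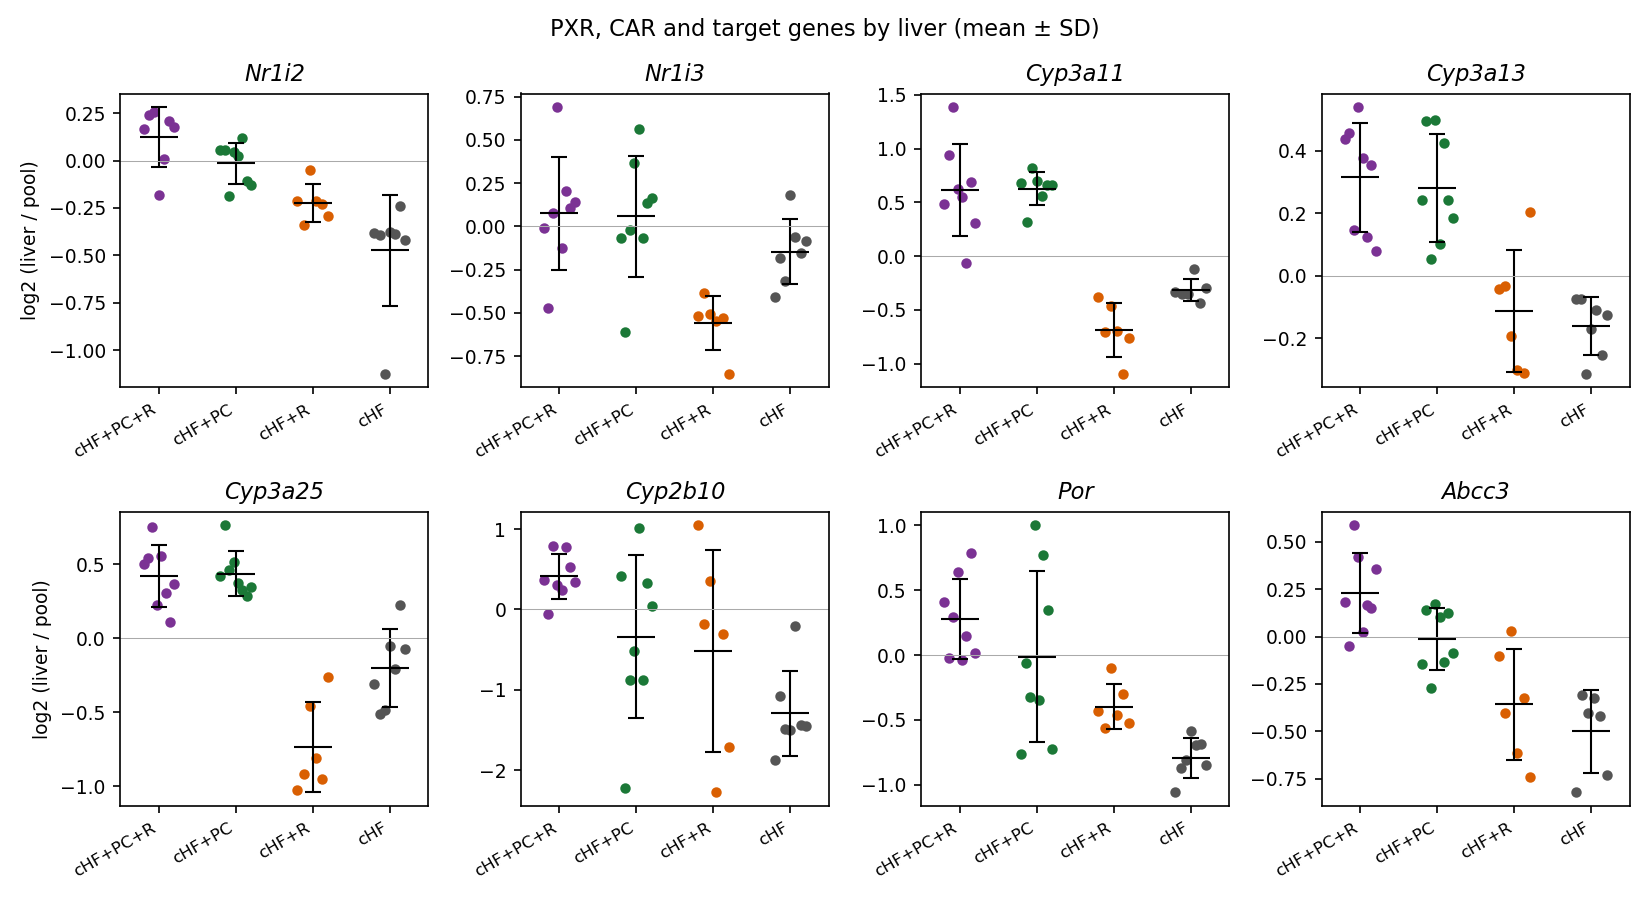
Log2 ratio of liver to pool for the lead probe of each gene (vertical axis), with 1 point per liver in the groups cHF+PC+R, cHF+PC, cHF+R and cHF (horizontal axis). Bars give the mean ± SD. Cyp3a11 and Cyp3a25 lay lowest in cHF+R livers, Cyp2b10 spread widely in cHF+PC and cHF+R livers (SD 1.01 and 1.26), and Nr1i2 had 1 low cHF liver at -1.13.

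The receptor genes come first. Nr1i2 rose by 0.60 ± 0.09 (SE) in cHF+PC+R livers and by 0.46 ± 0.09 in cHF+PC livers against cHF livers, on the log2 scale. Nr1i3 did not pass the test in either comparison, but was higher in cHF+PC+R than in cHF+R livers by 0.63 ± 0.14.

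The log2 ratio of Nr1i2 ranged from -0.18 to 0.26 (median 0.18) over 7 cHF+PC+R livers with a value and from -0.19 to 0.12 (median 0.03) in cHF+PC livers. It ranged from -0.34 to -0.05 (median -0.22) in cHF+R livers, against -1.13 to -0.24 (median -0.39) in cHF livers. Both groups that ate phospholipids lay above every cHF liver, while cHF+R livers overlapped with cHF livers. Against cHF, the fold was 1.51 in cHF+PC+R livers (adjusted p = 0.000127) and 1.37 in cHF+PC livers (adjusted p = 0.00382). In cHF+R livers the change was 0.25 ± 0.10, which missed the threshold of 0.05 (adjusted p = 0.19). Without the lowest cHF liver, replicate 3, the changes were 0.49, 0.35 and 0.14 in cHF+PC+R, cHF+PC and cHF+R livers. The fold in either phospholipid group rested in part on 1 liver, and its direction did not.

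Nr1i3 ranged from -0.47 to 0.69 (median 0.09) in cHF+PC+R livers and from -0.61 to 0.56 (median 0.06) in cHF+PC livers. It ranged from -0.85 to -0.38 (median -0.52) in cHF+R livers, against -0.41 to 0.18 (median -0.15) in cHF livers. The cHF+R livers were lowest, with a small overlap with the lowest cHF liver. The change in cHF+R livers against cHF was -0.41 ± 0.15 (adjusted p = 0.138), and it was below 0 on 5 of 5 slides that held both groups. That change passed in 1 of 45 alternatives, the fit with only cHF+R and cHF arrays (adjusted p = 0.0205). Between cHF+PC+R and cHF+R the difference of 0.63 had an adjusted p of 0.00591 and was positive on 5 of 6 slides. The second Nr1i3 probe gave 0.53 ± 0.12 in that comparison (adjusted p = 0.00769).

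Of the 8 members, 7 rose in cHF+PC+R livers against cHF livers, all but Nr1i3, where 4.55% of the 23932 probes tested were called higher and 4.49% lower (9.03% in all). In cHF+PC livers 6 rose against cHF, all but Nr1i3 and Cyp2b10, where 1.86% of all probes were called higher and 1.98% lower (3.84% in all). No member fell in either comparison. The median change of the 8 members was 0.68 in cHF+PC+R livers and 0.56 in cHF+PC livers, against 0.012 and 0.0024 for all probes. Groups did not overlap for 6 of 8 members in the cHF+PC+R comparison and 5 of 8 in the cHF+PC comparison, against 2.32% and 1.36% of all probes.

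**Figure D2:**
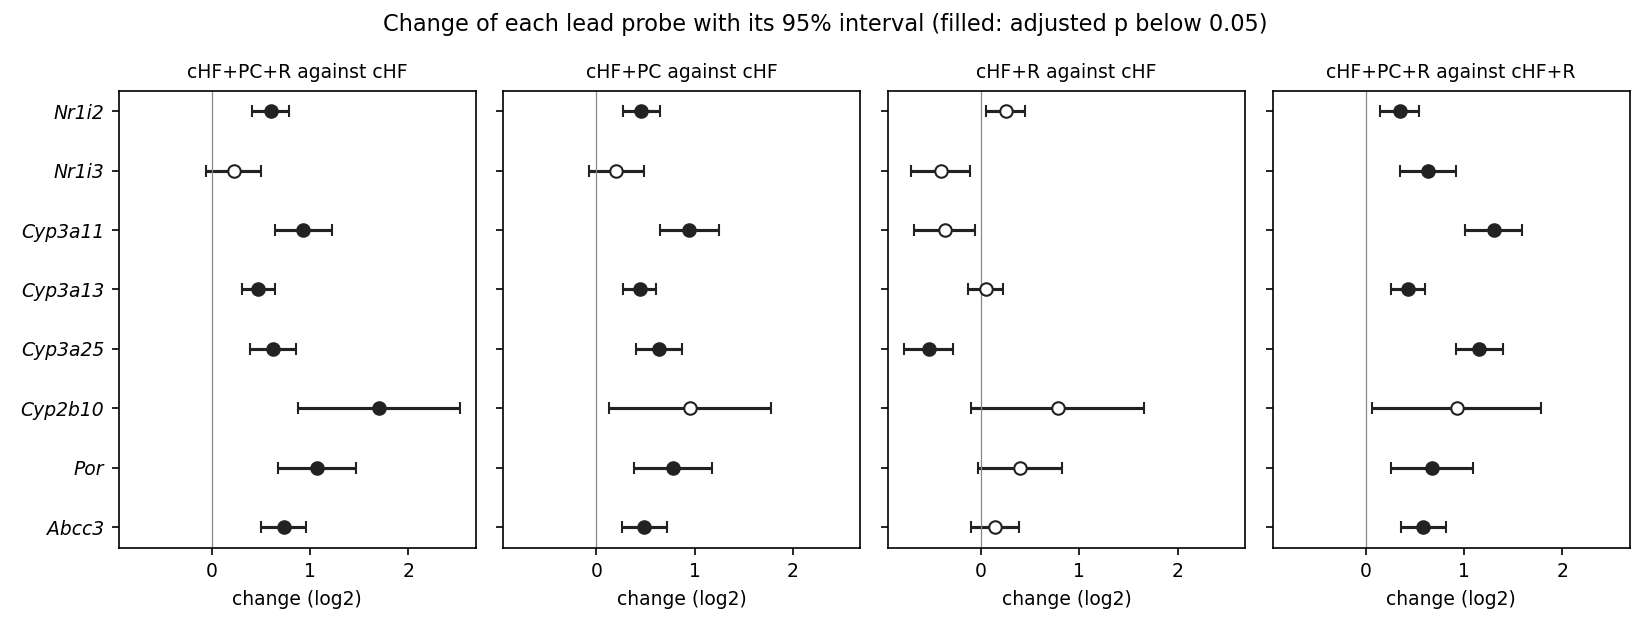
Change on the log2 scale (horizontal axis) of the lead probe of each gene (vertical axis), with its 95% interval, in 4 comparisons. Filled points passed an adjusted p of 0.05. Cyp3a11 and Cyp3a25 changed most between cHF+PC+R and cHF+R (1.30 and 1.16), and Cyp2b10 had the widest intervals.

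The Cyp3a enzymes oxidise steroids, bile acids and many drugs. Cyp3a11 ranged from -0.07 to 1.39 (median 0.59) in cHF+PC+R livers and from 0.32 to 0.82 (median 0.66) in the 7 cHF+PC livers with a value. It ranged from -1.10 to -0.38 (median -0.70) in cHF+R livers, against -0.43 to -0.12 (median -0.34) in the 6 cHF livers with a value. Every liver of both phospholipid groups was above every liver of the other groups. Cyp3a11 rose 1.91-fold in cHF+PC+R livers (0.93 ± 0.14, adjusted p = 0.000116) and 1.92-fold in cHF+PC livers (0.94 ± 0.15, adjusted p = 0.000332) against cHF. The second probe gave 0.97 and 0.86 in the same comparisons, and its values followed those of the lead probe with r = 0.989 over 27 livers.

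Cyp3a25 ranged from 0.11 to 0.75 (median 0.43) in cHF+PC+R livers and from 0.28 to 0.76 (median 0.39) in cHF+PC livers. It ranged from -1.02 to -0.26 (median -0.86) in cHF+R livers, against -0.52 to 0.23 (median -0.21) in cHF livers. Both phospholipid groups were high and cHF+R livers low, with cHF livers between them and overlapping with cHF+PC+R and cHF+R livers. Against cHF it rose by 0.62 ± 0.11 in cHF+PC+R livers (adjusted p = 0.000695), although the groups overlapped. In cHF+PC livers it rose by 0.64 ± 0.11 (adjusted p = 0.00132), with no overlap and a positive difference on 7 of 7 slides. Cyp3a13, a member of the family that lies apart from the Cyp3a cluster on chromosome 5, is described next.

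Cyp3a13 ranged from 0.08 to 0.54 (median 0.37) in cHF+PC+R livers and from 0.05 to 0.50 (median 0.24) in cHF+PC livers. It ranged from -0.31 to 0.20 (median -0.12) in cHF+R livers, against -0.31 to -0.07 (median -0.13) in cHF livers. Against cHF it rose by 0.47 ± 0.08 in cHF+PC+R livers (adjusted p = 0.000358) and by 0.44 ± 0.08 in cHF+PC livers (adjusted p = 0.00186). Its second probe gave 0.36 and 0.35. With the lead probe no cHF liver reached the lowest liver of either phospholipid group, while with the second probe cHF+PC+R and cHF livers overlapped.

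Promoters are printed for Cyp3a11 and Cyp3a25 because these were the members that differed most between cHF+PC+R and cHF+R, and because, of the 7 members with a window, only these held either hexamer searched. Each window runs from 250 bases before to 50 after the start of the gene, from RefSeq on the build GRCm38.p6, at chr5:145879805-145880104 for Cyp3a11 and chr5:146009569-146009868 for Cyp3a25, both on the minus strand. Capitals mark the hexamers AGGTCA and AGTTCA and their reverse complements.
Cyp3a11 promoter: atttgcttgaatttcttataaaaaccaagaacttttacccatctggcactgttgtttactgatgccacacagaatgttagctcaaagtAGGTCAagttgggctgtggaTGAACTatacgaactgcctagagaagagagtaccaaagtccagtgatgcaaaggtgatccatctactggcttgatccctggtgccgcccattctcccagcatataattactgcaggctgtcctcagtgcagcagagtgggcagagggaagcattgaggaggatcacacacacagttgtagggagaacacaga
Cyp3a25 promoter: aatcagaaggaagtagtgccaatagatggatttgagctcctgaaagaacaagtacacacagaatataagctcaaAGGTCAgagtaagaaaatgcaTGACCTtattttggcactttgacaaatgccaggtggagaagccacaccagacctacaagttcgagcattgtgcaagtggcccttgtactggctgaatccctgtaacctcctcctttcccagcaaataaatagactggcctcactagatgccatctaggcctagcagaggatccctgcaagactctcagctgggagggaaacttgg
In the Cyp3a11 window AGGTCA stands at -162 to -157 and the reverse complement of AGTTCA at -142 to -137, counted from the start of the gene. In the Cyp3a25 window AGGTCA stands at -176 to -171 and its reverse complement at -155 to -150. The windows of 7 members were in the table. AGGTCA, searched on both strands, was found in 2 of them and in 16.3% of 32851 windows. AGTTCA was found in 1 of 7 and in 14.0% of all windows. Pairs of these hexamers as a direct repeat 3 or 4 bases apart, or as an everted repeat 6 bases apart, the forms known for PXR and CAR, were in 0 of 7 member windows and in 4, 9 and 3 of all windows. A match describes letters and no match says only that these letters are not in this window.

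Cyp2b10, the best known target of CAR, stood out by its spread among livers. It ranged from -0.06 to 0.79 (median 0.35) in cHF+PC+R livers and from -2.22 to 1.01 (median -0.24) in cHF+PC livers. It ranged from -2.28 to 1.05 (median -0.24) in cHF+R livers, against -1.88 to -0.21 (median -1.45) in cHF livers. The cHF+PC+R livers lay close together, with an SD of 0.28 (n = 8), above every cHF liver, and the groups with a single supplement reached from below the lowest to above the highest of them. Cyp2b10 rose 3.25-fold in cHF+PC+R livers (1.70 ± 0.40, adjusted p = 0.00708). In cHF+PC livers the change was 0.95 ± 0.40 (adjusted p = 0.192) and in cHF+R livers 0.78 ± 0.43 (adjusted p = 0.414). The 95% intervals of these changes, 0.13 to 1.77 and -0.10 to 1.66, include sizes near that seen with both supplements. The change in cHF+PC livers passed in 1 of 45 alternatives, the fit with array weights (1.11, adjusted p = 0.0362).

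Por encodes the cytochrome P450 reductase. It ranged from -0.04 to 0.79 (median 0.22) in cHF+PC+R livers and from -0.76 to 1.00 (median -0.19) in cHF+PC livers. It ranged from -0.57 to -0.10 (median -0.45) in cHF+R livers, against -1.06 to -0.59 (median -0.81) in cHF livers. The cHF+PC livers were scattered, with an SD of 0.66 (n = 8) against 0.15 in cHF livers (n = 7). Por rose 2.10-fold in cHF+PC+R livers (1.07 ± 0.19, adjusted p = 0.000668) and 1.72-fold in cHF+PC livers (0.78 ± 0.19, adjusted p = 0.0202). The call in cHF+PC livers was lost with only the compared groups in the fit (adjusted p = 0.0648) and with array weights (0.46, adjusted p = 0.114). In cHF+R livers the change of 0.40 ± 0.21 missed the threshold (adjusted p = 0.385), although every cHF+R liver lay above every cHF liver. That change passed in 1 of 45 alternatives, the fit with only cHF+R and cHF arrays (adjusted p = 0.0172).

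Abcc3 encodes an exporter of conjugated bile acids and drugs toward the blood. It ranged from -0.05 to 0.59 (median 0.17) in cHF+PC+R livers and from -0.27 to 0.17 (median 0.0072) in cHF+PC livers. It ranged from -0.74 to 0.03 (median -0.36) in cHF+R livers, against -0.82 to -0.31 (median -0.41) in the 6 cHF livers with a value. Both phospholipid groups were above every cHF liver. Abcc3 rose by 0.73 ± 0.11 in cHF+PC+R livers (adjusted p = 0.000121) and by 0.49 ± 0.11 in cHF+PC livers (adjusted p = 0.0132).

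With rosiglitazone alone 1 of the 8 members passed, and with only the compared groups in the fit 2 did, Nr1i3 and Por, as given above. Cyp3a25 fell by 0.53 ± 0.12 in cHF+R livers (adjusted p = 0.011), where 1.02% of all probes were called lower and 1.96% higher (2.98% in all). The groups overlapped in the highest cHF+R livers, and the difference was negative on 4 of 5 slides. Changes of other members were on both sides of 0, with Cyp3a11 at -0.37 ± 0.15 (adjusted p = 0.221) and Abcc3 at 0.14 ± 0.12 (adjusted p = 0.636). Cyp3a13 changed by 0.05, with a 95% interval of -0.13 to 0.23. The Cyp3a25 call was lost with only the compared groups in the fit (adjusted p = 0.0515), with Cy5 alone (adjusted p = 0.0791) and without the 6 arrays of narrow ratios (-0.47, adjusted p = 0.112). Of 5 markers of adipocytes, Lep, Plin1 and Adipoq were too dim to be tested, and Cfd (4.51 ± 0.83, adjusted p = 0.00152) and Retn (0.66 ± 0.18, adjusted p = 0.0464) rose in cHF+R livers. The call of Retn was lost in 27 of 45 alternatives, and its second probe gave 0.74 ± 0.22 (adjusted p = 0.0639). Sums of markers, here and below, use Cy5 intensities that were background-corrected and quantile-normalized between arrays. The sum over all 5 was 12630 to 188000 in cHF+R livers, against 1755 to 6502 in cHF livers. Adipoq and Plin1 were well above background on 2 arrays each and Lep on 0, so the sum is not a signal of all 5. The part of these markers in the change of Cyp3a25 was not tested.

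With rosiglitazone in both diets, 7 of 8 members were higher in cHF+PC+R than in cHF+R livers, all but Cyp2b10, where 3.12% of all probes were called higher and 3.58% lower (6.7% in all). Cyp3a11 was 2.47-fold higher (1.30 ± 0.14, adjusted p = 2.33e-06) and Cyp3a25 2.23-fold higher (1.16 ± 0.12, adjusted p = 1.35e-06). These ranked seventh and second by p among all 23932 probes, and the difference was positive on 6 of 6 slides for each. Abcc3 was higher by 0.59 ± 0.11 (adjusted p = 0.0016) and Cyp3a13 by 0.43 ± 0.08 (adjusted p = 0.00204). The groups did not overlap for 3 of 8 members (Cyp3a11, Cyp3a25 and Por), against 1.56% of all probes. The calls of Nr1i2 (0.35 ± 0.10, adjusted p = 0.0276) and Por (0.68 ± 0.20, adjusted p = 0.041) were close to the threshold. Nr1i2 had an adjusted p of 0.0506 with the slide as a block, and leaving out 1 array ended its call in 5 of 29 fits and that of Por in 9 of 29. With Cy5 alone the calls of Cyp3a13 (adjusted p = 0.114), Nr1i2 (0.0772) and Por (0.0673) were lost. The call of Por was also lost with array weights (adjusted p = 0.0561) and with no filter on dim probes (adjusted p = 0.0551). The summed intensity of the adipocyte markers was 666.8 to 183600 in cHF+PC+R livers and 12630 to 188000 in cHF+R livers, and Cfd was lower by 3.01 ± 0.83 (adjusted p = 0.0273). Of 10 hepatocyte markers 3 were higher in cHF+PC+R than in cHF+R livers, Cps1 (0.56 ± 0.15), Tdo2 (0.21 ± 0.07) and Pck1 (1.096 ± 0.336), with a median change of 0.19 over the list, and the stellate cell marker Lrat was lower by 0.58 ± 0.09. The part of these markers in the changes of the members was not tested.

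Adding rosiglitazone to the phospholipids changed 0 of 8 members in the limma fit, where 0.113% of all probes were called (0.0961% higher and 0.0167% lower), and 1 member (Abcc3, 0.24 ± 0.10) had an unadjusted p under 0.05. The intervals for cHF+PC+R against cHF+PC livers are those of the limma fit and do not bound the difference under other processing. They ran from -0.29 to 0.27 for Cyp3a11, from -0.24 to 0.21 for Cyp3a25 and from -0.13 to 0.19 for Cyp3a13. Over 45 alternatives the lowest changes of these genes, -0.55, -0.50 and -0.30, fell below the intervals. The highest, 0.15, 0.07 and 0.14, lay inside them. The interval of Cyp2b10 was wide, from -0.04 to 1.54 around a change of 0.75. That of Abcc3, from 0.03 to 0.46, lay above 0, and that of Por ran from -0.09 to 0.67. The groups were therefore not shown to be equal.

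The effect of the phospholipids was set against itself with and without rosiglitazone as an interaction. It was called for 0 of 8 members and for 0% of all probes in the limma fit, while 2 members and 1595 probes had an unadjusted p under 0.05. These members were Cyp3a25, whose rise with phospholipids was larger by 0.52 ± 0.16 in the presence of rosiglitazone (adjusted p = 0.594), and Nr1i3, larger by 0.43 ± 0.20 (adjusted p = 0.717). The interval for Cyp3a11, around 0.36, was -0.06 to 0.78. For Cyp2b10 it was -1.21 to 1.16, an interval wider than the change of Cyp2b10 in cHF+PC livers. No member passed the test of a difference between the effects with and without rosiglitazone.

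The counts of members called depended on the normalization. Where loess was replaced by median centring, 1, 0, 0 and 0 members were called in the comparisons of cHF+PC+R, cHF+PC and cHF+R with cHF and of cHF+PC+R with cHF+R, and with scaling between arrays after loess 0 were called in each. The changes stayed positive for every member that had risen: under median centring Cyp3a11 changed by 0.90 in cHF+PC+R livers and 0.82 in cHF+PC livers, and under scaling by 0.70 and 1.25. When scaling was run without background subtraction, under which those arrays were not narrow, 7, 6, 1 and 7 members were called, as many as without scaling. Leaving those 6 arrays out gave 7, 6, 0 and 6. The adjusted p of Cyp3a11 with median centring was 0.328 in cHF+PC+R livers and 0.929 in cHF+PC livers.

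Of 9 other Cyp3a and Cyp2b genes on the array 6 were measured, and 5 of these rose in cHF+PC+R livers and 4, all of them Cyp3a genes, in cHF+PC livers against cHF, where 4.55% and 1.86% of all probes were called higher, with median changes of 0.89 and 0.77. Cyp3a16 rose by 0.91 ± 0.13 and 0.87 ± 0.13, Cyp3a41b by 0.86 ± 0.12 and 0.83 ± 0.12, and Cyp3a59 by 0.80 ± 0.10 and 0.79 ± 0.10 in these groups. The second Cyp3a59 probe gave 1.41 ± 0.26 and 1.57 ± 0.26. Cyp3a16 and the Cyp3a41 genes are known in mice as enzymes more abundant in females. Their values followed Cyp3a11 closely over 27 livers, with r = 0.996 for Cyp3a16, 0.991 for Cyp3a41b and 0.978 for Cyp3a59, the 3 genes most like it among 18176. Transcripts of this family are near copies, so a probe named for one can bind another, and these values are not separate evidence from Cyp3a11. Cyp3a57 rose by 0.68 ± 0.11 in each phospholipid group and fell by 0.48 ± 0.12 in cHF+R livers (adjusted p = 0.0201, and 0.0521 with a slide block). The call in cHF+R livers was lost in 9 of 45 alternatives. In these livers Cyp3a57 ranged from -1.02 to -0.33, against -1.02 to -0.26 for Cyp3a25, with replicate 1 lowest and replicate 6 highest for both. The changes of Cyp3a57 are therefore not separate evidence from those of Cyp3a25.

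Cyp2b9 and Cyp2b13, cytochromes known to be more abundant in female mouse liver, shared the wide spread of Cyp2b10. Cyp2b9 rose by 1.56 ± 0.42 in cHF+PC+R livers (adjusted p = 0.0174), where Cyp2b13 did not pass (1.14 ± 0.38, adjusted p = 0.058), and neither passed in cHF+PC livers (0.75 ± 0.42 and 0.60 ± 0.38). It ranged from -0.22 to 1.12 (median 0.45) in cHF+PC+R livers and from -2.36 to 1.21 (median -0.26) in cHF+PC livers. It ranged from -1.98 to 1.41 (median 0.04) in cHF+R livers, against -1.74 to 0.01 (median -1.23) in cHF livers. In each of the 4 groups the liver lowest for Cyp2b10 was also the lowest for Cyp2b9. Over 29 livers the genes most like Cyp2b10 were a transcript named only by an identifier (r = 0.988), Cyp2b9 (r = 0.975) and Cyp2b13 (r = 0.904). Whether a probe of one of these genes binds transcripts of another was not tested, so these values are not separate evidence from Cyp2b10.

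**Figure D3:**
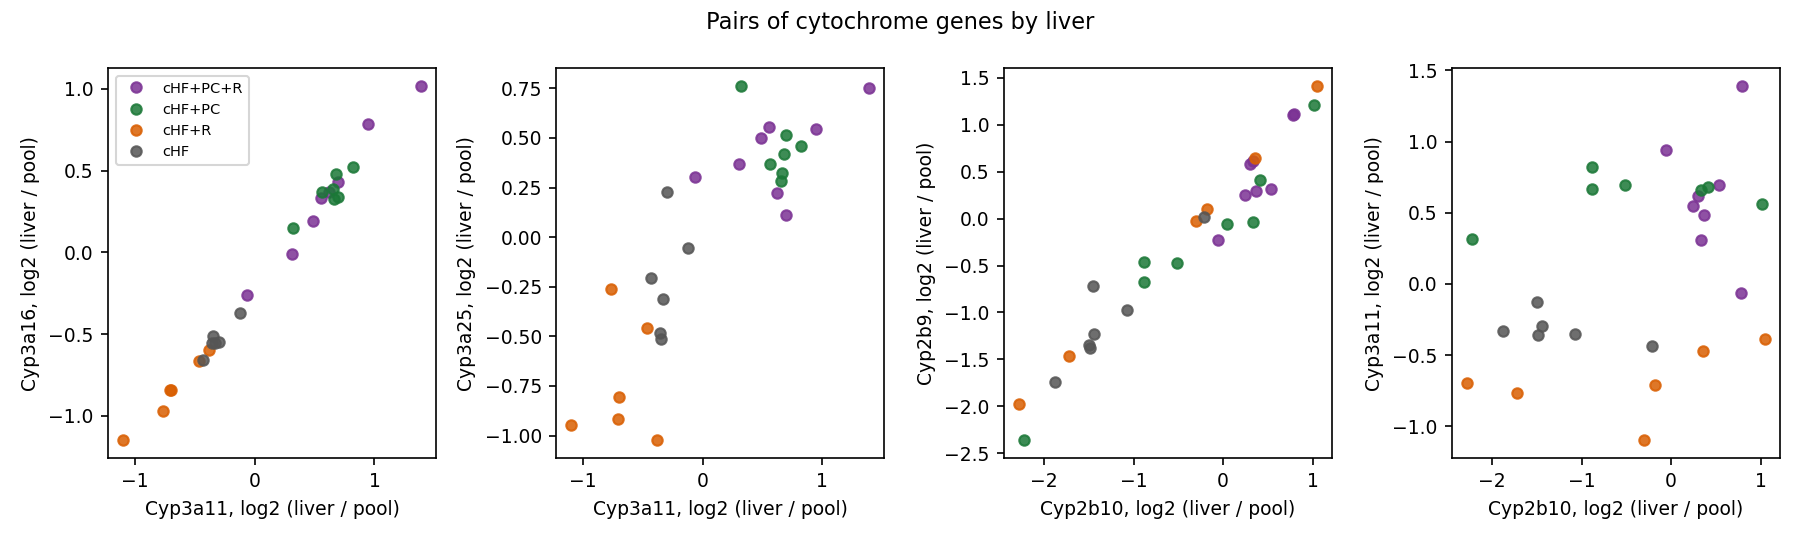
Log2 ratio of liver to pool of 1 cytochrome gene (vertical axis) against another (horizontal axis), with 1 point per liver coloured by group. Cyp3a16 followed Cyp3a11 (r = 0.996) and Cyp2b9 followed Cyp2b10 (r = 0.975), while Cyp2b10 values of cHF+R livers spanned -2.28 to 1.05 with Cyp3a11 at -0.38 or lower.

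The most similar genes of the remaining members were found in the same way. For Cyp3a25 they were LOC100044443 (r = 0.974), Gm7208 (0.937) and Ces2a (0.924). For Nr1i2 they were 4933439C10Rik (0.839), Mlycd (0.825) and Cyp4a31 (0.824), and for Nr1i3 Sugct (0.831), LOC100044952 (0.807) and Ech1 (0.801). For Cyp3a13 they were Nkd2 (0.88), Igfbp2 (0.877) and Retreg2 (0.857). For Por they were B4galt5 (0.869), P2ry1 (0.866) and Gm14506 (0.836), and for Abcc3 Tmem43 (0.865), Eci2 (0.835) and Cyp4a10 (0.829). Each is Pearson's r over 28 or 29 livers of all groups, so differences between group means enter it. Only genes with a value on all 29 arrays were compared, which left out Cyp3a57.

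Further genes known as targets of PXR or CAR were called in both directions. Of 22 measured, 10 rose and 2 fell in cHF+PC+R livers, 3 rose and 1 fell in cHF+PC livers, and 2 rose and 3 fell in cHF+R livers, all against cHF. The median changes were 0.39, 0.30 and 0.01. Over all probes 4.55%, 1.86% and 1.96% were called higher and 4.49%, 1.98% and 1.02% lower in these comparisons. The carboxylesterase gene Ces2a rose by 0.74 ± 0.12 in cHF+PC+R livers and 0.83 ± 0.12 in cHF+PC livers. The glucuronosyltransferase gene Ugt2b35 rose by 0.62 ± 0.09 and 0.61 ± 0.09. The uptake transporter gene Slco1a4 rose by 0.55 ± 0.15 in cHF+PC livers (adjusted p = 0.0304, and 0.0539 with a slide block). Cyp2c55, a known target of both receptors, rose by 0.88 ± 0.15 in cHF+PC+R livers (adjusted p = 0.000291), and its changes of 0.36 ± 0.15 in cHF+PC and 0.48 ± 0.16 in cHF+R livers did not pass. The change in cHF+R livers passed in 3 of 45 alternatives, with an adjusted p of 0.0295 with a slide block against 0.104 without it.

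Some targets went the other way. Gstm2, a glutathione transferase gene, fell by 0.81 ± 0.14 in cHF+PC+R livers, by 0.60 ± 0.14 in cHF+PC livers and by 0.59 ± 0.15 in cHF+R livers (adjusted p = 0.0252 there, and 0.0692 with a block for the slide). Of its 2 further probes, 1 did not pass in cHF+PC (-0.28 ± 0.09, adjusted p = 0.0797) or cHF+R livers (-0.32 ± 0.10, adjusted p = 0.0696). The other gene of the list that fell in cHF+PC+R livers was the lipogenic gene Thrsp (-1.61 ± 0.48, adjusted p = 0.0326). In cHF+R livers Cyp2c37 fell by 1.17 ± 0.16 (adjusted p = 3.74e-05) and Cyp2c29 by 0.84 ± 0.17 (adjusted p = 0.00451). The efflux transporter gene Abcc4 rose by 1.05 ± 0.17 (adjusted p = 0.000364) and Gadd45b by 0.71 ± 0.15 (adjusted p = 0.00453). Cyp2c29 was higher in cHF+PC+R than in cHF+R livers by 1.09 ± 0.17 (adjusted p = 0.000155). Gstm3 passed in none of the comparisons with cHF (0.46 ± 0.19, 0.39 ± 0.19 and -0.05 ± 0.21 in cHF+PC+R, cHF+PC and cHF+R livers). Its second probe gave -0.19 ± 0.25, 0.03 ± 0.25 and -0.26 ± 0.27 in the same order, so the probes do not share a direction in cHF+PC+R livers.

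Of 22 measured partners and coregulators of the receptors, 2 rose in cHF+PC+R livers, 3 in cHF+PC livers and 0 in cHF+R livers, where 3 had an unadjusted p under 0.05, and 0 fell in each. Over all probes 4.55%, 1.86% and 1.96% were called higher in these comparisons. Rxra, which encodes the retinoid X receptor partner, rose by 0.22 ± 0.05 in cHF+PC livers (adjusted p = 0.0139), and its change was 0.15 ± 0.05 in cHF+PC+R livers (adjusted p = 0.058). The second Rxra probe went the other way, at -0.04 ± 0.06 (adjusted p = 0.779) in cHF+PC and -0.19 ± 0.06 (adjusted p = 0.0534) in cHF+PC+R livers, so the probes disagree and the gene has no settled direction. Foxo1 and Rxrb rose by 0.18 ± 0.05 each in cHF+PC livers and 0.17 ± 0.05 each in cHF+PC+R livers. A block for the slide ended both calls in both comparisons (adjusted p = 0.0538 to 0.0917). The second Foxo1 probe, fitted without that block, rose by 0.24 ± 0.06 in cHF+PC livers (adjusted p = 0.0153) and 0.19 ± 0.06 in cHF+PC+R livers (adjusted p = 0.0346).

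Of 13 genes of haem supply and electron transfer, 2 rose and 1 fell in cHF+PC+R livers, 2 rose and 2 fell in cHF+PC livers, and 0 were called in cHF+R livers. Over all probes 4.55%, 1.86% and 1.96% were called higher and 4.49%, 1.98% and 1.02% lower in these comparisons. The genes that rose were Cyb5a, for cytochrome b5, an electron carrier to some cytochromes P450 (0.42 ± 0.08 and 0.33 ± 0.08), and Pgrmc1, a haem-binding partner of them (0.25 ± 0.07 and 0.27 ± 0.07). Cyb5r3, the reductase of cytochrome b5, fell by 0.39 ± 0.10 and 0.47 ± 0.10, and Cyb5b fell by 0.44 ± 0.10 in cHF+PC livers. The probes of Cyb5r3 disagree, since its second probe did not pass in cHF+PC+R (-0.17 ± 0.08, adjusted p = 0.202) or cHF+PC livers (-0.07 ± 0.08, adjusted p = 0.716). The second Cyb5b probe was lower in both, by 0.27 ± 0.08 and 0.32 ± 0.08, while the lead probe did not pass in cHF+PC+R livers. Alas1, the first enzyme of haem synthesis and a known target of both receptors, changed by 0.21 ± 0.26, 0.20 ± 0.26 and 0.05 ± 0.28 in cHF+PC+R, cHF+PC and cHF+R livers and was not called.

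Of 11 measured genes of the AhR and Nrf2 pathways, which answer to other foreign compounds, 1 rose in cHF+PC+R livers and 0 were called in cHF+PC and cHF+R livers in the limma fit, where 2 had an unadjusted p under 0.05 in each. Over all probes 9.03%, 3.84% and 2.98% were called in cHF+PC+R, cHF+PC and cHF+R livers, so counts this small do not set the list apart from all probes. The gene that rose was Nqo1 (0.48 ± 0.15, adjusted p = 0.0413, and 0.0751 with a slide block). Cyp1a2 changed by 0.47 ± 0.14 in cHF+PC livers (adjusted p = 0.055) and by -0.46 ± 0.15 in cHF+R livers (adjusted p = 0.105). The change in cHF+PC livers passed in 11 of 45 alternatives. Between cHF+PC+R and cHF+R livers Cyp1a2 was higher by 0.54 ± 0.15 (adjusted p = 0.0224), a call lost in 8 of 45 alternatives. Of 7 Abcc transporters not listed as targets (Abcc1, Abcc5, Abcc6, Abcc8, Abcc9, Abcc10 and Abcc12), 0 were called in each comparison with cHF, and 2, 1 and 1 had an unadjusted p under 0.05 in cHF+PC+R, cHF+PC and cHF+R livers. With 7 genes, 0 calls is also near the share over all probes. Leaving out 1 array gave up to 2 calls in cHF+PC+R livers, with a count above 0 in 10 of 29 fits.

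**Figure D4:**
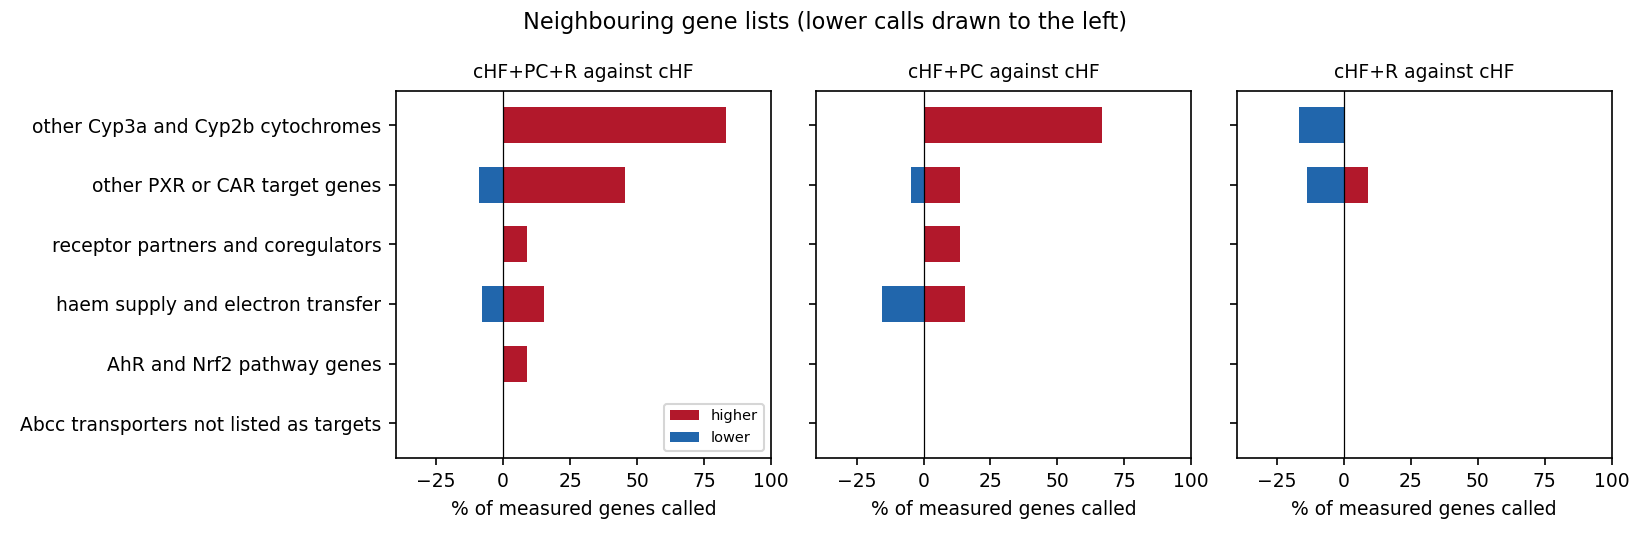
Share of the measured genes of each list called higher (to the right) or lower (to the left), in percent, in cHF+PC+R, cHF+PC and cHF+R livers against cHF. The other Cyp3a and Cyp2b genes had 5 and 4 of 6 called higher in the phospholipid groups, and the Abcc transporters outside the target list, which holds Abcc2 and Abcc4, had 0 of 7 called. Over all probes 4.55%, 1.86% and 1.96% were called higher and 4.49%, 1.98% and 1.02% lower in these comparisons.

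Markers of cell types were set beside these changes. Of 10 hepatocyte markers, Ttr fell by 0.59 ± 0.10 in cHF+PC+R livers and 0.50 ± 0.10 in cHF+PC livers. Serpina1a fell by 0.30 ± 0.08 in cHF+PC+R and 0.35 ± 0.08 in cHF+R livers, where its second probe did not pass (-0.16 ± 0.13 and -0.18 ± 0.14), and Cps1 rose by 0.53 ± 0.14 in cHF+PC+R livers. Their summed intensity was 1465000 to 1875000 in cHF+PC+R, 1034000 to 1875000 in cHF+PC and 1622000 to 1983000 in cHF+R livers, against 1096000 to 1838000 in cHF livers. Of 8 stellate and endothelial cell markers 1 fell in each phospholipid group, Lrat, by 0.34 ± 0.09 in cHF+PC+R and 0.49 ± 0.09 in cHF+PC livers, and their sums were 12490 to 15290 in cHF+PC+R, 9765 to 14190 in cHF+PC and 11920 to 17610 in cHF+R livers, against 11120 to 14190 in cHF livers. Of 9 Kupffer cell and leukocyte markers and 5 measured cholangiocyte markers 0 were called against cHF, and 2 of the Kupffer cell and leukocyte markers had an unadjusted p under 0.05 in cHF+R livers. Over all probes 9.03%, 3.84% and 2.98% were called in cHF+PC+R, cHF+PC and cHF+R livers. In lists this short 0 calls is near that share, so it does not show that these cell types were unchanged. The Kupffer cell and leukocyte sum was 42270 to 78990 in cHF+PC+R, 42010 to 71570 in cHF+PC and 48640 to 112600 in cHF+R livers, against 43550 to 67320 in cHF livers. The part of these markers in the changes of the receptors and their targets was not tested.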

How the data were processed

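The data are 29 Agilent 2-colour arrays of mouse liver RNA. Per the labels, the Cy3 products of all samples were pooled as a common reference, no dyes were swapped, and 1 high-fat and 1 rosiglitazone array were left out by the authors. Groups and replicate numbers came from the labels. Per the file headers, the deposited scanner files give a linear intensity and local background per spot and channel, extracted with Agilent Feature Extraction 10.5.1.1 and not normalized between arrays. A deposited table gives log2 values in 25806 rows, which hold 23286 probes that are not controls. It follows each array's own Cy5 intensity (r from 0.99 to 0.999), its column medians are 9.03, how it was normalized was not stated, and it served as an alternative.

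Mean intensities were background-corrected with normexp (offset 50) and normalized within arrays by loess in limma 3.58.1 (R 4.3.3). Outlier and control spots were left out and spots of a probe averaged. A probe was tested if its Cy5 signal was well above background on 6 or more arrays and it had a value on 20 or more, which left 23932 of 39429. limma (lmFit, eBayes) fitted 4 group means to all arrays, two-sided, with Benjamini-Hochberg adjustment over all probes tested and a threshold of 0.05. Rose and fell are used of what passed it, and each ± is the fit's SE unless an SD is named. A 95% interval is that of the fit. No slide of the 8 held a group more than once, so slides were run as a block and differences also taken within slides. The number of arrays limits the precision. The fit was checked on simulated data.

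The members and the 11 gene lists were chosen with earlier results of these data known, so they give no independent support. The lists supply up to 4 called genes with the smallest adjusted p per comparison with cHF, and Rxra, Alas1, Cyp2c55, Cyp2c29, Gstm3 and Cyp1a2 always. Thrsp and Cyp2b9, and Gstm2 in cHF+R livers, were named after their values were seen. Gene names came from accessions or symbols matched to GRCm38.p6, which served for names and promoters only. Alternatives were other background corrections and normalizations, the deposited table, other filters, 1 probe per gene, blocks, only the compared groups, array weights, an intensity trend, and leaving out each array. 2 more, chosen after seeing the data, left out arrays whose median absolute log2 ratio was below 0.07, or scaled between arrays without background subtraction.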

Additional observations from a re-analysis of the deposited data

Results flagged for a closer look

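Of 32 sets of values (8 genes in 4 groups), 2 held a liver far from the others by Dixon's test, which chance does in about 1 group in 20. Nr1i2 was at -1.13 in cHF replicate 3, and the nearest cHF liver was at -0.42. Without that array Nr1i2 still passed in cHF+PC+R and cHF+PC livers, with changes of 0.49 and 0.35. Nr1i3 was at -0.85 in cHF+R replicate 6, and the nearest cHF+R liver was at -0.55. Without it the change of Nr1i3 in cHF+R livers against cHF was -0.35.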

How the results depend on the processing

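Of the 8 members, 7, 6, 1 and 7 were called in cHF+PC+R, cHF+PC and cHF+R livers against cHF and in cHF+PC+R against cHF+R livers. With median centring these counts were 1, 0, 0 and 0, and with scaling between arrays 0, 0, 0 and 0. With Cy5 alone the counts were 0 in cHF+R livers and 4 in cHF+PC+R against cHF+R livers, with only the compared groups 2 in cHF+R livers, and without the 6 arrays of narrow ratios 0 in cHF+R livers. Leaving out each array in turn gave 7, 6, 1 and 5 to 7. For the comparison of cHF+PC+R with cHF+PC and for the interaction every alternative gave 0 members. Rxrb was at -0.046 in cHF+PC livers with scaling and Serpina1a at 0.049 in cHF+R livers with median centring, against the directions given. The cause of these differences was not tested.

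The replicate numbers of the labels did not pair the arrays: same-numbered arrays of different groups had a median correlation of 0.022 between their deviations from the group means, and the lowest was -0.348. With the replicate number as a block 7, 6, 1 and 7 members were called, and 2286, 1043, 687 and 1636 probes in all. With the slide as a block 7, 6, 1 and 6 members were called.

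Counts over all probes moved more. In cHF+PC livers 918 were called, against 12 with median centring, 335 with scaling, 467 with Cy5 alone, 359 without the narrow arrays, 1450 with no background subtraction, 1504 with scaling as well, 1379 in the deposited table and 1487 with array weights. In cHF+R livers 712 were called, against 97, 87, 367 and 404 under the first 4 of these. In cHF+PC+R livers 2162 were called, against 109, 188 and 943 under the first 3, and against cHF+R livers 1603, with 60, 107, 783 and 925, and 911 with only the compared groups. Between cHF+PC+R and cHF+PC livers 27 were called, with a range of 1 to 169, and for the interaction 0, with up to 4. Leaving out cHF+PC replicate 4 gave 511 in cHF+PC livers, and leaving out cHF+R replicate 1 gave 887 between cHF+PC+R and cHF+R livers. The share called higher was 65.9% in cHF+R livers, against 93.8% with median centring, 87.4% with scaling, 55% with the scanner's processed signals and 39.4% in the deposited table. It was 50.3% in cHF+PC+R livers, against 30.3% in the deposited table, and 46.5% against cHF+R livers, where median centring gave 13.3%, scaling 31.8% and the authors' log2 values 57.9%. With median centring the median of all probes was 0.141 in cHF+R livers, relative to which Cyp3a25 was at -0.36 and Serpina1a at -0.092.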
